A study of Mus musculus with 8 samples.

Results

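The proteasome of brown adipose tissue (BAT), the heat-producing fat of rodents, was examined through the genes that encode its subunits, activators and assembly factors. Members were chosen by name, as each protein-coding mouse gene whose symbol is Psma, Psmb, Psmc, Psmd, Psme, Psmf or Psmg followed by a digit. The rule found 50 genes among the 31053 in the count table, of which 5 are immune subunits (Psmb8, Psmb9, Psmb10, Psme1 and Psme2) and 45 are the remaining, constitutive members. The rule used no measured value. It also took in Psmc3ip, which shares the symbol but is not a subunit, and Psme2b, a near-identical copy of Psme2.

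RNA-seq libraries came from the BAT of 4 wild-type (WT) and 4 db/db mice, all 8 weeks old and, per the methods of the study, male and fasted for 16 h before tissue collection. The labels give the strain C57BL6/J for all 8 samples. The methods name C57BL6/J as WT and B6.BKS(D)-Leprdb/J as db/db. They give different suppliers for the WT mice in different places, so whether both genotypes came from one supplier is not clear. The db/db mice carry a leptin receptor mutation in every cell of the body and become obese, and the design text describes the samples as biological replicates. The WT libraries held 2374079 to 2615009 counts and the db/db libraries 2382722 to 3240074. The labels give the tissue as BAT and the cell type as stromal vascular fraction. The adipocyte genes Ucp1 and Adipoq were abundant in all 8 libraries, with Ucp1, the uncoupling protein of brown adipocytes, at 1892 to 2754 CPM (counts scaled to library size) in WT and at 1056 to 2027 CPM in db/db, and Adipoq, the adipokine adiponectin, at 1245 to 1828 and at 1684 to 2112 CPM. The library of db/db replicate 1 stood apart from the other db/db libraries, with counts that differed from theirs by 11.3 to 14.03 on a chi-square scale (per degree of freedom, where sampling noise alone gives 1), while the other 3 differed from each other by 5.80 to 7.72.

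The proteasome degrades proteins tagged with ubiquitin. Its core is a barrel of stacked rings, with alpha subunits outside and beta subunits inside, and the proteolytic sites sit on Psmb5, Psmb6 and Psmb7. A cap with a ring of ATPases and a non-ATPase lid recognises, unfolds and feeds in the substrates, while dedicated chaperones build the particle. Under interferon gamma, cells exchange the catalytic subunits for Psmb8, Psmb9 and Psmb10 and add the PA28 activator of Psme1 and Psme2, which changes the peptides offered to MHC class I. Brown adipocytes depend on proteasome activity to tolerate thermogenic activity, and the transcription factor Nfe2l1 is known to maintain proteasome genes in this tissue.

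Of the 50 members, 46 passed the filter on low counts and were tested. Psma8, the alpha subunit of germ cells, and Psmb11, the beta subunit of the thymus, had 0 counts in each of the 8 libraries, which allows levels of up to 0.902 to 1.33 CPM for 3 counts, depending on the library. Psmc3ip had 0 to 4 counts and Psme2b had 1 to 6 counts per library, and neither was tested.

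In db/db BAT, 7 constitutive members fell and 2 rose, and 0 of the 5 immune subunits passed the test. The 9 called members are 19.6% of the 46 tested, beside 27.7% of all 9264 genes tested. By direction, 7 of 46 members (15.2%) fell, beside 11.9% of all genes, and 2 of 46 (4.35%) rose, beside 15.8% of all genes. The median log2 fold change was -0.11 over the members and 0.0066 over all genes tested, and the median absolute log2 fold change was 0.16 over the members and 0.38 over all genes. Fitted changes were above 0 for 17 members and below 0 for 29. Without overlap between the CPM values of the genotypes, 2 members lay higher and 10 lower in db/db, beside 15.3% and 12.7% of all genes.

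The plot of log2 fold changes by role shows the called members in the alpha ring (1), the ATPases (3), the other cap subunits (3) and the assembly factors (2), and 0 in the beta rings and the activators. The 37 members that did not pass the test lay between -0.36 and 0.24 on the log2 scale.

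**Figure D1:**
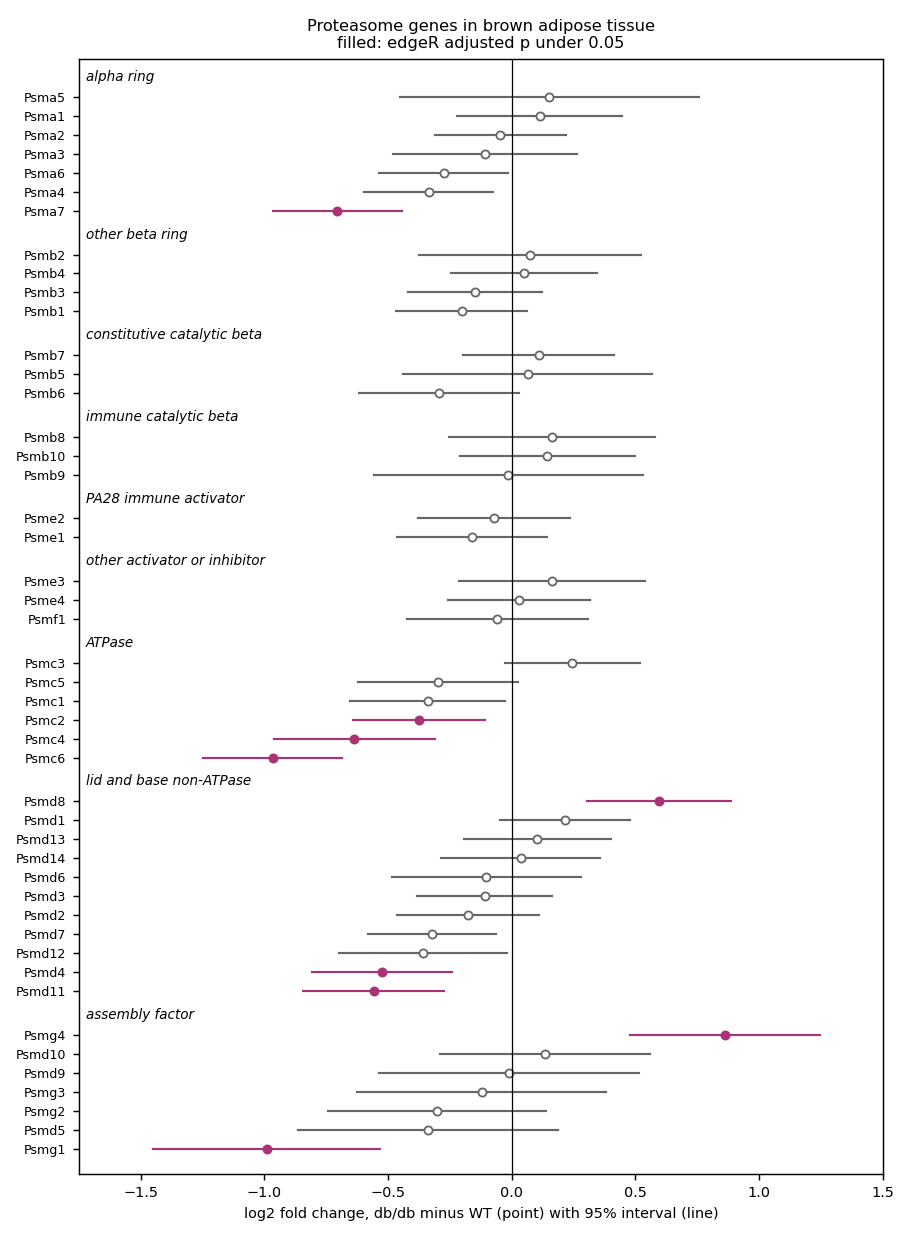
Log2 fold change of each of the 46 tested members, db/db minus WT (x axis, point) with its 95% interval (line), grouped by role, filled where the edgeR adjusted p was under 0.05. Filled points number 7 below 0 and 2 above 0, and the 5 immune subunits are open and close to 0.

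Promoter windows are shown for Psmg1, Psmc6 and Psmg4, whose changes were the largest of the members, and for the pair Psmb8 and Psmb5, the immune and constitutive versions of one catalytic position. They were read from RefSeq on GRCm38.p6, 5′ to 3′ on the strand of the gene, from 250 bases before to 50 bases after the start that RefSeq gives. The gene positions given with the results are from GENCODE M21, and its outermost start can lie further upstream. The windows of Psmb8, Psmb9, Psmb11, Psmd5, Psmd9, Psmd13, Psme1 and Psmf1 fall inside the GENCODE gene, as do further windows of Psma6 and Psmc2. Capitals mark a match to 1 of 3 motifs on either strand: TGACNNNGC, the core of the antioxidant response element that Nfe2l1 and Nfe2l2 bind, in Psmc6 and Psmb5; TTCNNNGAA, the gamma-activated site of interferon-responsive genes, in Psmg1 and Psmb8; and GAAA repeated after any 2 bases, the interferon-stimulated response element, in Psmg4. The windows lie at chr16:95990911-95991210 (minus strand), chr14:45329574-45329873 (plus), chr13:34162714-34163013 (plus), chr17:34197945-34198244 (plus) and chr14:54617946-54618245 (minus).
Psmg1: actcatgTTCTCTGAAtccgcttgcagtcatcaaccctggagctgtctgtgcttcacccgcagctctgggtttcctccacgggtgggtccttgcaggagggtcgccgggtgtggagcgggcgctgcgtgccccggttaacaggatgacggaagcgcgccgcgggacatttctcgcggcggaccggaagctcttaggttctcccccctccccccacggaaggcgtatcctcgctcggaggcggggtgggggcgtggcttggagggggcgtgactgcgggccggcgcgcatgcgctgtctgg
Psmc6: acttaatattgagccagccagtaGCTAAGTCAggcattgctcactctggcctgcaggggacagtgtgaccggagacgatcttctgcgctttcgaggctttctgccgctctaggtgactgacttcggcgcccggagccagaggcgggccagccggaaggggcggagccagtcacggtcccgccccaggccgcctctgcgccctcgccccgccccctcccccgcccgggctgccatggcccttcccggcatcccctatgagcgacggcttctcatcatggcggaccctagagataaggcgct
Psmg4: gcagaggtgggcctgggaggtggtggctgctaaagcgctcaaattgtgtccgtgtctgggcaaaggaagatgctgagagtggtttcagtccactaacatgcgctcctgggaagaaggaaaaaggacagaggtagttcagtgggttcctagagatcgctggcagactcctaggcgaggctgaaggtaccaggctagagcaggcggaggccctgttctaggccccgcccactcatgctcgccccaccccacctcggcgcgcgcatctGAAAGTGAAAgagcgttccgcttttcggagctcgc
Psmb8: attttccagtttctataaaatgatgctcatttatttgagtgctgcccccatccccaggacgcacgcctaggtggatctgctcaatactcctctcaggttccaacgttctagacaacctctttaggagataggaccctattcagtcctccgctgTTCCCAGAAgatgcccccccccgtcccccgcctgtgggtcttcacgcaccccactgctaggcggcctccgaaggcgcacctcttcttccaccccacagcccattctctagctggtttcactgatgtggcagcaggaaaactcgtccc
Psmb5: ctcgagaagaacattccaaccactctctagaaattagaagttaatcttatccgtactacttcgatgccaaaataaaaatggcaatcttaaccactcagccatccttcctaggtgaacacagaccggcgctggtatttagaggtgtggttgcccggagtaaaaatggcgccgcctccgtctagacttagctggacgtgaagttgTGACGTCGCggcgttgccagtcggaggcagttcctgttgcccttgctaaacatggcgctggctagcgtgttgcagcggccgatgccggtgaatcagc

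A window was held for 42 of the 50 members (45 windows). The antioxidant response core was found in 13.3% of the member windows (Psmb5, Psmb6, Psmc6, Psmd9, Psmd12 and Psme4) and in 12.4% of all 32851 windows. The gamma-activated site was found in 6.67% (Psmb8, Psmd2 and Psmg1) and in 8.30% of all. The interferon-stimulated element was found in 11.1% (Psmb3, Psmd4, Psmd9, Psme1 and Psmg4) and in 3.44% of all. Of the 5 immune subunits, Psmb8 and Psme1 held a match to an interferon motif in these RefSeq windows. Both rising and falling members carried matches, and a match describes letters in the window, not a bound site.

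In the outer rings of the core, 1 of 7 alpha subunits passed the test. Psma7 (chromosome 2, 180036374 to 180042433, minus strand), an alpha ring subunit, stood at 390.5, 361.3, 409.6 and 345.5 CPM in the WT libraries and at 231.6, 228.1, 210.6 and 254.1 CPM in db/db. Each db/db library lay below each WT library, and Psma7 fell by 0.70 on the log2 scale (SE 0.12, adjusted p = 0.000357), a fold of 0.614 (95% interval 0.512 to 0.735). The highest fitted change of the ring was that of Psma5, at 0.15 (SE 0.29, adjusted p = 0.742), with 9.71 to 21.9 CPM in WT and 11.7 to 26.1 CPM in db/db. Exons of Psma5 overlap those of a gene on the opposite strand, which makes its counts uncertain. The genotypes also did not overlap for Psma4 and Psma6, chosen for mention after their values were seen, at -0.34 (adjusted p = 0.0518) and -0.28 (adjusted p = 0.107). Psma4 shares exon sequence with another gene, and it passed in 5 alternatives to the scaling or the tool (DESeq2, limma-voom and 3 other scalings). Summed over the 7 alpha subunits, the 4 WT libraries stood at 1044 ± 73.2 CPM (SD) and the 4 db/db libraries at 838.0 ± 47.9 CPM, without overlap. Leaving Psma7 out, the sums were 667.5 ± 60.9 and 606.9 ± 35.6 CPM and overlapped.

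In the inner rings, 0 of the 4 non-catalytic beta subunits and 0 of the 3 constitutive catalytic subunits passed the test. Fitted changes of the non-catalytic subunits ran from Psmb1, at -0.20 (SE 0.13, adjusted p = 0.254), to Psmb2, at 0.072 (SE 0.21, adjusted p = 0.841). Psmb1 stood at 198.8 to 240.7 CPM in WT and at 168.9 to 209.7 CPM in db/db, and Psmb2 at 24.3 to 47.0 and at 25.9 to 44.3 CPM. Both genes overlapped between the genotypes.

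The ATPase ring of the cap, which unfolds substrates, had 3 of 6 members lower in db/db and 0 higher, beside 11.9% and 15.8% of all genes. Psmc6 (chromosome 14, 45329788 to 45349705, plus strand) had 109.3, 110.6, 125.9 and 131.6 CPM in WT and 55.1, 66.2, 60.3 and 62.9 CPM in db/db. The highest db/db library was well below the lowest WT library, and Psmc6 fell by 0.97 (SE 0.13, adjusted p = 3.88e-05), a fold of 0.512 (95% interval 0.421 to 0.622). This was the smallest adjusted p among the members.

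Psmc4 had 83.0, 78.5, 80.8 and 87.9 CPM in WT and 63.2, 42.9, 45.2 and 60.6 CPM in db/db. It fell by 0.64 (SE 0.15, adjusted p = 0.00484) and the db/db libraries were spread more widely, at 53.0 ± 10.4 CPM against 82.5 ± 4.00 CPM (SD, n = 4 each). Psmc2 had 96.3, 103.0, 98.8 and 107.0 CPM in WT and 75.2, 83.7, 81.6 and 71.8 CPM in db/db. Psmc2 fell by 0.38 (SE 0.13, adjusted p = 0.0348), the weakest of the 9 calls, and it missed the threshold in 4 of 8 fits that each left out 1 library (WT replicates 2 and 4, db/db replicates 1 and 4), where its adjusted p reached 0.0869.

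Psmc3 was the only ATPase with a fitted change above 0, at 0.24 (SE 0.13, adjusted p = 0.175), with 142.2 to 164.3 CPM in WT and 150.5 to 197.7 CPM in db/db. It shares exon sequence with another annotated gene. The median log2 fold change of the 6 ATPases was -0.36. Summed, they stood at 816.9 ± 42.6 CPM (SD, n = 4) in WT against 659.7 ± 44.6 CPM (SD, n = 4) in db/db. Without Psmc6 the sums were 697.6 ± 41.8 and 598.6 ± 44.8 CPM. They stayed apart only barely, with the lowest WT library at 655.0 CPM and the highest db/db library at 652.5 CPM. That sum still held Psmc4 and Psmc2, both called.

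Among the 11 other subunits of the cap, 2 fell and 1 rose. Psmd11, a scaffold subunit of the lid, had 112.9, 119.9, 116.5 and 112.9 CPM in WT and 65.9, 74.4, 92.2 and 82.2 CPM in db/db, and it fell by 0.56 (SE 0.14, adjusted p = 0.00498). Psmd4, which binds ubiquitin chains, had 451.6, 390.0, 375.4 and 401.5 CPM in WT and 280.4, 228.1, 302.3 and 315.8 CPM in db/db, and it fell by 0.52 (SE 0.13, adjusted p = 0.00712). Neither gene overlapped between the genotypes.

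Psmd8 (chromosome 7, 29174188 to 29180701, minus strand), another lid subunit, moved the other way. It had 266.7, 346.5, 290.8 and 319.2 CPM in WT and 375.7, 466.4, 480.1 and 527.9 CPM in db/db. Each db/db library exceeded each WT library, and Psmd8 rose by 0.60 (SE 0.14, adjusted p = 0.00352), a fold of 1.51 (95% interval 1.24 to 1.85). Psmd7, named after its values were seen, also did not overlap and had a change of -0.32 (adjusted p = 0.0608). With opposite changes inside the group, the summed level of the 11 subunits reached 1650 ± 57.7 CPM in WT and 1606 ± 97.1 CPM in db/db and overlapped.

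The 7 assembly factors, chaperones that build the core or the cap, held the members with the largest changes in both directions. Psmg1 (chromosome 16, 95979933 to 95990960, minus strand), a chaperone of alpha ring assembly, had 24.3, 24.1, 31.2 and 19.5 CPM in WT and 13.2, 12.1, 14.2 and 10.4 CPM in db/db, from 28 to 83 counts per library. It fell by 0.99 (SE 0.22, adjusted p = 0.00229), a fold of 0.503 (95% interval 0.366 to 0.691). Psmg4 (chromosome 13, 34162964 to 34178173, plus strand), which also acts in building the core, had 15.4, 23.2, 19.2 and 19.9 CPM in WT and 34.0, 35.6, 32.8 and 38.7 CPM in db/db, from 38 to 113 counts. Psmg4 rose by 0.86 (SE 0.18, adjusted p = 0.00174), a fold of 1.82 (95% interval 1.39 to 2.37). Both genes separated the genotypes completely, in opposite directions. None of the 9 called members has exons that overlap those of another annotated gene in position. Copies of similar sequence elsewhere in the genome were not searched for.

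**Figure D2:**
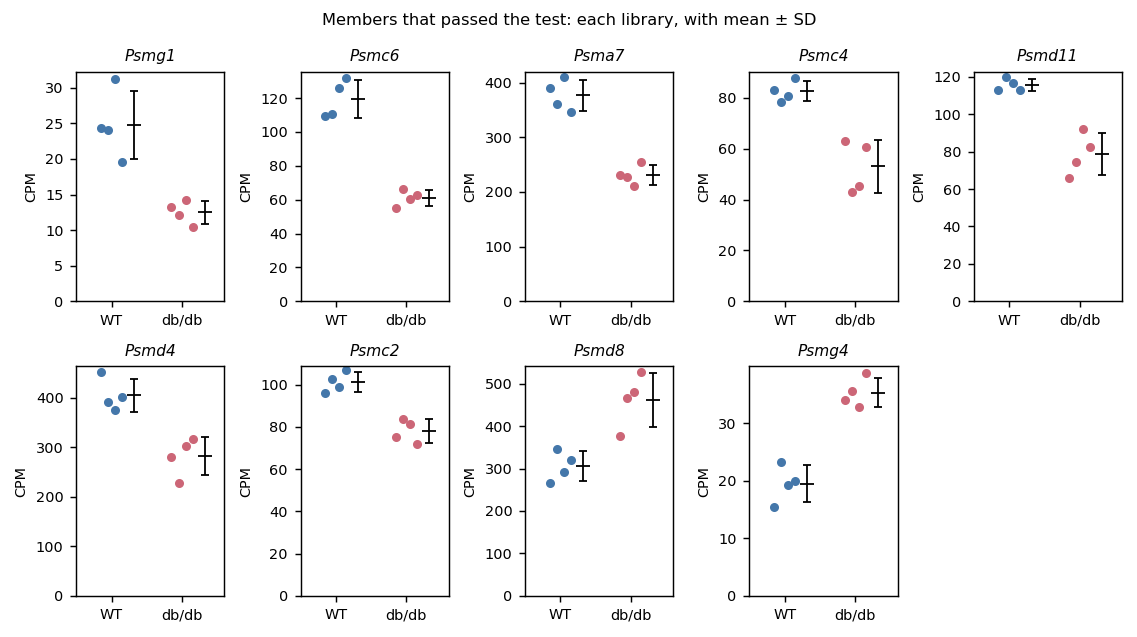
CPM (y axis, from 0) of the 9 members that passed the test in each WT and db/db library (points), with mean ± SD over 4 libraries (bars). Psmg1, Psmc6, Psma7, Psmc4, Psmd11, Psmd4 and Psmc2 are lower and Psmd8 and Psmg4 higher in every db/db library than in every WT library.

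The plot of the called members by library shows the WT and db/db libraries apart in each of the 9 panels. In 8 fits that each left out 1 library, 2 members were called higher each time and 6 to 8 lower, and the 8 called members other than Psmc2 passed in all 8 fits. In the fit with a skeletal muscle score as a covariate, 0 members were called higher and 1 lower (Psmc6), while calls over all genes dropped from 2568 to 546. The score did not overlap between the genotypes, so this fit cannot cleanly separate muscle content from genotype. All 9 members kept their direction in that fit, with changes of -1.01 for Psmg1, -0.93 for Psmc6, -0.78 for Psmc4, -0.54 for Psma7, -0.45 for Psmc2, -0.44 for Psmd4, -0.41 for Psmd11, 0.74 for Psmd8 and 0.84 for Psmg4, and with SEs of 0.22 to 0.42 in place of 0.12 to 0.22.

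The immune subunits addressed whether the interferon-inducible form of the proteasome differed in db/db BAT. Psmb8 (chromosome 17, 34197721 to 34201454, plus strand), which replaces Psmb5, had 23.1, 27.0, 25.2 and 26.3 CPM in WT and 39.1, 25.1, 23.5 and 25.3 CPM in db/db. Only db/db replicate 1 lay above the WT range, and the fitted change was 0.16 (SE 0.20, adjusted p = 0.587), a fold of 1.12 (95% interval 0.838 to 1.49). Without db/db replicate 1 the change was -0.047.

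Psmb9 (chromosome 17, 34181987 to 34187764, minus strand), which replaces Psmb6, had 14.6, 13.5, 17.3 and 13.6 CPM in WT and 15.6, 18.1, 16.4 and 8.18 CPM in db/db. Its change was -0.013 (SE 0.26, adjusted p = 0.977), a fold of 0.991 (95% interval 0.680 to 1.44), and db/db replicate 4 was the lowest of the 8 libraries. Psmb10 (chromosome 8, 105935735 to 105938444, minus strand), which replaces Psmb7, had 38.0, 32.9, 26.7 and 30.1 CPM in WT and 36.1, 36.3, 32.8 and 35.7 CPM in db/db. Its change was 0.14 (SE 0.17, adjusted p = 0.569), a fold of 1.10 (95% interval 0.865 to 1.41).

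The activator genes Psme1 (55578123 to 55581529) and Psme2 (55587441 to 55591113) are neighbours on chromosome 14. Psme1 had 133.5, 95.4, 96.6 and 89.6 CPM in WT and 93.6, 95.1, 90.4 and 91.9 CPM in db/db, a change of -0.16 (SE 0.14, adjusted p = 0.440) and a fold of 0.894 (95% interval 0.725 to 1.10). Without WT replicate 1, the highest of the 8 libraries, the change was -0.037. Psme2 had 59.9, 86.5, 75.5 and 82.8 CPM in WT and 66.5, 73.5, 70.5 and 79.6 CPM in db/db, a change of -0.071 (SE 0.15, adjusted p = 0.763) and a fold of 0.952 (95% interval 0.769 to 1.18). For all 5 immune subunits the WT and db/db libraries overlapped and the interval of the fold included 1, with upper limits from 1.10 to 1.49. Exons of Psmb8, Psmb9 and Psme1 overlap an antisense gene, and reads of Psme2 can also come from Psme2b, so counts of these 4 are uncertain.

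**Figure D3:**
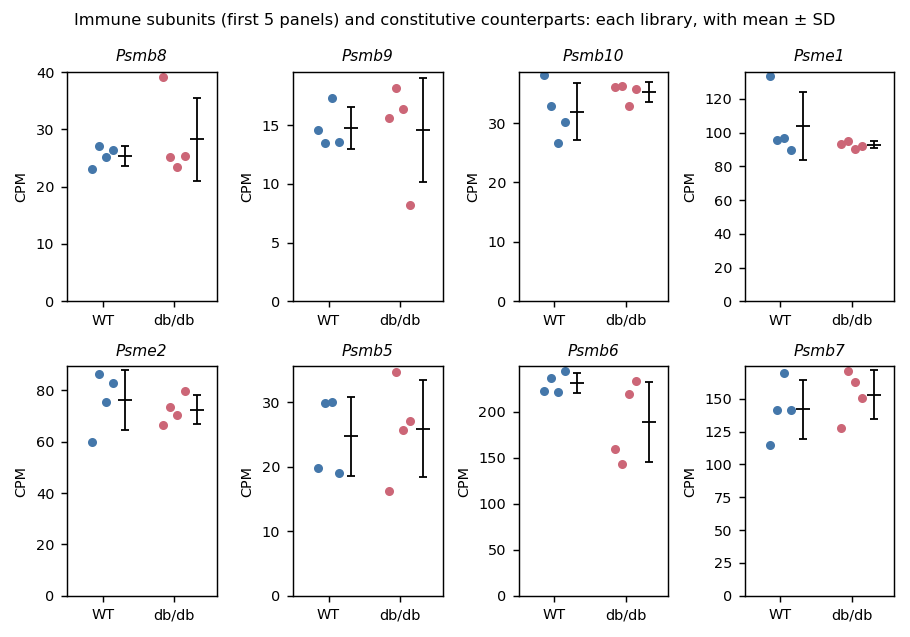
CPM (y axis, from 0) of the 5 immune subunits and of Psmb5, Psmb6 and Psmb7 in each WT and db/db library (points), with mean ± SD over 4 libraries (bars). The genotypes overlap in all 8 panels, and 1 db/db library of Psmb8 (39.1 CPM) and 1 WT library of Psme1 (133.5 CPM) lie above the rest.

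As the plot of the immune subunits and their counterparts shows, the constitutive catalytic genes overlapped as well. Psmb5 had 19.8, 30.0, 30.1 and 19.1 CPM in WT and 16.2, 34.7, 25.7 and 27.2 CPM in db/db, a change of 0.065 (SE 0.24, adjusted p = 0.874). Psmb6 had 222.6, 236.8, 221.7 and 244.5 CPM in WT and 159.4, 143.8, 219.0 and 233.2 CPM in db/db, a change of -0.29 (SE 0.15, adjusted p = 0.168). Its db/db libraries split into a lower and a higher pair, the higher within the WT range or just below it. Psmb7 had 114.5, 141.4, 169.8 and 141.8 CPM in WT and 128.2, 170.8, 163.1 and 150.7 CPM in db/db, a change of 0.11 (SE 0.15, adjusted p = 0.622). Psmb5 and Psmb7 also share exon sequence with neighbours, which makes their counts uncertain.

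Each immune subunit was then set against the constitutive subunit it replaces, within each library, as the log2 ratio of their counts. The mean log2 ratio of Psmb8 to Psmb5 in the 4 WT libraries was 0.068 ± 0.33 (SD) and in the 4 db/db libraries 0.14 ± 0.76, which differ by 0.074 (95% interval -0.94 to 1.09, exact permutation p = 0.857). That of Psmb9 to Psmb6 was -3.96 ± 0.22 and -3.71 ± 0.79, a difference of 0.25 (95% interval -0.75 to 1.25, exact permutation p = 0.60). For Psmb10 to Psmb7 the values were -2.14 ± 0.44 and -2.11 ± 0.21, a difference of 0.034 (95% interval -0.57 to 0.64, exact permutation p = 0.943). All 3 pairs overlapped between the genotypes, with an exact permutation p of 0.943 after adjustment over the 3 pairs (two-sided) and a smallest possible p of 0.0286. The intervals of the first 2 pairs include a doubling of the ratio. Single libraries moved these differences: Psmb8 to Psmb5 was -0.30 without db/db replicate 1, Psmb9 to Psmb6 was 0.0071 when db/db replicate 2 was left out and 0.62 when replicate 4 was (exact permutation p = 0.0857), and Psmb10 to Psmb7 was -0.14 without WT replicate 3 and 0.22 without WT replicate 1.

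Divided by exon length, Psmb8 made up 18.2% to 26.8% of the sum of Psmb8 and Psmb5 in WT and 16.2% to 39.0% in db/db. Psmb9 made up 2.76% to 3.83% of its pair in WT and 1.76% to 6.06% in db/db, and Psmb10 made up 24.0% to 39.99% and 28.7% to 36.1%. With that divisor the immune gene had the smaller share of each pair in all 8 libraries. This reading holds only if reads cover the exons evenly. Where along the transcript the reads fall is not stated, and by counts alone Psmb8 made up 45.6% to 57.9% of its pair in WT and 42.0% to 70.7% in db/db.

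The remaining activators and the inhibitor gave no calls. Psme3, the nuclear activator PA28 gamma, had the highest fitted change, 0.16 (SE 0.18, adjusted p = 0.545), with 27.8 to 37.6 CPM in WT and 30.5 to 44.2 CPM in db/db. Psmf1, the inhibitor PI31, had the lowest, -0.058 (SE 0.17, adjusted p = 0.842), with 27.4 to 34.9 CPM in WT and 27.1 to 37.2 CPM in db/db.

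Summed over the 46 tested members, the proteasome stood at 5102 ± 113.3 CPM (SD, n = 4) in WT against 4618 ± 255.2 CPM (SD, n = 4) in db/db, a ratio of 0.905. The highest db/db library (4987 CPM) lay just below the lowest WT library (4988 CPM). The 41 constitutive members alone summed to 4719 to 4973 CPM in the WT libraries and 4152 to 4746 CPM in the db/db libraries, which overlapped. The 5 immune subunits summed to 252.0 ± 13.1 CPM in WT and 243.3 ± 7.79 CPM in db/db and overlapped. The PA28 genes Psme1 and Psme2 summed to 172.1 to 193.4 CPM in the WT libraries and 160.0 to 171.5 CPM in the db/db libraries. These sums did not overlap but nearly touched, and neither gene passed the test. The 3 immune catalytic genes had a ratio of means of 1.08, overlapped, and none passed. Their sum was 90.9 CPM in db/db replicate 1 and 69.2 to 79.5 CPM in the other db/db libraries. As a share of all counts, the 50 members held 0.491% to 0.528% in WT and 0.433% to 0.473% in db/db, without overlap. Mitochondrial transcripts took 31.9% to 34.0% of counts in WT and 30.7% to 37.6% in db/db, and as a share of the remaining counts the members held 0.743% to 0.785% and 0.683% to 0.749%, which overlapped. In bulk tissue, fewer cells of a type and less RNA per cell cannot be told apart.

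Among 22 tested genes for proteins that work with the proteasome but carry other symbols, 5 fell in db/db and 0 rose, beside 11.9% and 15.8% of all genes, with a median log2 fold change of -0.10. The 3 called genes with the largest changes were Ubqln4, a shuttle that brings ubiquitinated proteins to the cap, and Uchl5 and Usp14, the deubiquitinases that bind the cap. Ubqln4 had 33.2, 25.3, 31.6 and 34.4 CPM in WT and 14.1, 12.4, 14.6 and 17.9 CPM in db/db and fell by 1.08 (SE 0.20, adjusted p = 0.000524). Uchl5 had 48.6, 59.1, 49.2 and 34.4 CPM in WT and 19.2, 28.6, 21.3 and 26.4 CPM in db/db and fell by 0.999 (SE 0.20, adjusted p = 0.000918). Usp14 had 95.5, 117.7, 97.3 and 101.4 CPM in WT and 49.9, 49.0, 71.8 and 64.4 CPM in db/db and fell by 0.81 (SE 0.15, adjusted p = 0.000641). None of the 3 overlapped between the genotypes. The other 2 called genes of the list, Ecpas and Txnl1, both known to bind the proteasome, had changes of -0.53 (adjusted p = 0.0291) and -0.47 (adjusted p = 0.0192), and Ecpas was not called without db/db replicate 1.

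Of 13 genes of proteasome transcription, 2 rose, 1 fell and 10 did not pass, beside 15.8% higher and 11.9% lower over all genes. Nfe2l1, the factor that drives proteasome genes when proteasome activity is limiting, had 115.3, 136.3, 150.3 and 147.3 CPM in WT and 183.2, 234.5, 241.6 and 198.3 CPM in db/db and rose by 0.64 (SE 0.14, adjusted p = 0.00203). Mafk, a small Maf protein that pairs with it on DNA, had 13.5 to 16.1 CPM in WT and 31.5 to 41.7 CPM in db/db and rose by 1.39 (SE 0.18, adjusted p = 2.62e-05). Ngly1, the N-glycanase that processes Nfe2l1 protein, had 21.04 to 33.4 CPM in WT and 8.42 to 12.8 CPM in db/db and fell by 1.40 (SE 0.22, adjusted p = 0.000149). The genotypes did not overlap for any of the 3, so the factor and its enzyme changed in opposite directions. Ddi2, the protease that cleaves Nfe2l1, did not pass, at -0.15 (adjusted p = 0.615), and is named as the next step of the same processing, after its value was seen.

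Of 6 tested genes of ubiquitin and its activation, 1 rose and 1 fell, beside 15.8% and 11.9% of all genes, with a median log2 fold change of -0.026. Ubb, a polyubiquitin gene, rose by 0.98 (SE 0.23, adjusted p = 0.00377), from 21.9, 24.9, 52.6 and 28.4 CPM in WT to 65.0, 75.1, 59.4 and 52.8 CPM in db/db. Ubiquitin genes have near-identical copies, so the Ubb counts are uncertain.

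The antigen presentation genes that work downstream of the immunoproteasome were compared next. Of 13 tested genes of MHC class I processing, 5 rose and 0 fell, beside 15.8% and 11.9% of all genes, with a median log2 fold change of 0.21. H2-K1, a classical class I heavy chain, had 43.7, 77.7, 101.1 and 64.9 CPM in WT and 142.0, 148.9, 105.5 and 94.1 CPM in db/db and rose by 0.77 (SE 0.21, adjusted p = 0.0109). Tapbp, the peptide loading factor tapasin, had 103.3 to 148.5 CPM in WT and 172.1 to 229.8 CPM in db/db and rose by 0.69 (SE 0.15, adjusted p = 0.00196). Its relative Tapbpl rose by 0.67 (SE 0.23, adjusted p = 0.0411), with 10.97 to 17.3 and 16.9 to 26.1 CPM. The other 2 called genes, named after their values were seen, were the heavy chain H2-D1, at 0.54 (adjusted p = 0.0155), and its light chain B2m, at 0.47 (adjusted p = 0.0243). Class I heavy chains are a gene family with similar sequences, so the counts of H2-K1 and H2-D1 are uncertain. The list summed to 4224 CPM in db/db replicate 1 and 3021 to 3599 CPM in the other db/db libraries, and without that library 4 genes were called higher, B2m no longer among them. Tap1, the peptide transporter gene that overlaps Psmb9, is named for that overlap and had 6.79 to 13.8 CPM in WT and 7.81 to 12.4 CPM in db/db, a change of 0.037 (adjusted p = 0.941).

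Genes of the interferon gamma response gave 3 calls higher and 0 lower of 19 tested, beside 15.8% and 11.9% of all genes, with a median log2 fold change of 0.42. Cd74, the class II invariant chain, rose by 1.14 (SE 0.20, adjusted p = 0.000295), with 43.2 to 76.9 CPM in WT and 99.3 to 167.0 CPM in db/db. Irf8, a transcription factor of myeloid cells, had 4.13 to 8.07 CPM in WT and 8.91 to 19.6 CPM in db/db and rose by 1.17 (SE 0.33, adjusted p = 0.0143). The receptor subunit Ifngr1 had 106.0 to 141.4 and 145.6 to 215.9 CPM and rose by 0.49 (SE 0.15, adjusted p = 0.0190). Cd74 and Irf8 are also known as genes of antigen-presenting and myeloid cells. The list summed to 801 CPM in db/db replicate 1 and 615 to 678 CPM in the other db/db libraries. Without that library 3 of 20 tested genes were called higher and 1 lower (Iigp1), with a median of 0.29, and Cxcl10, a chemokine, was called in place of Irf8.

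**Figure D4:**
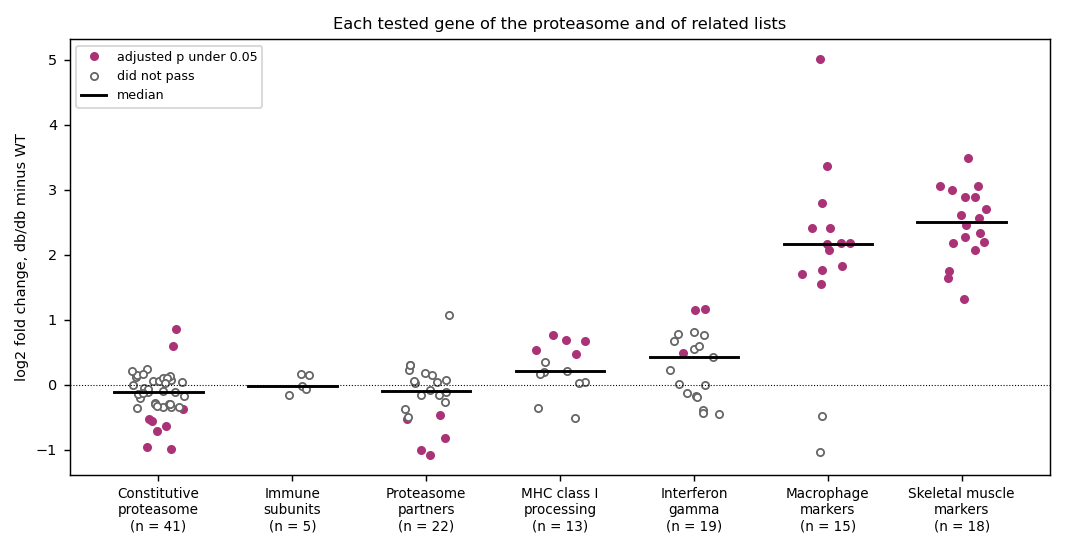
Log2 fold change, db/db minus WT (y axis), of each tested gene (points, filled where the edgeR adjusted p was under 0.05) of the constitutive and immune proteasome and of 5 related lists, with the median of each (line). Medians lie at -0.11 and -0.013 for the constitutive and immune members, -0.10 for the partners, 0.21 for class I processing, 0.42 for interferon gamma genes, 2.17 for macrophage markers and 2.51 for skeletal muscle markers.

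The plot of the related lists sets these medians beside the cell type markers that differed between the libraries. Over all genes, 15.8% were called higher and 11.9% lower. Macrophage markers were higher in db/db, with 13 of 15 tested called higher and 0 lower and a summed level of 205.5 to 263.0 CPM in WT and 855 to 1489 CPM in db/db. Adgre1, which encodes the macrophage protein F4/80, had 0.844 to 7.14 CPM in WT and 11.97 to 19.1 CPM in db/db. Of 22 markers of other leukocytes, 7 could be tested and 5 were called higher. The 15 that could not be tested include those of T, B and NK cells, and Cd79a was at 0 in each library. Ptprc, the pan-leukocyte gene, had 1.27 to 8.49 CPM in WT and 7.54 to 19.2 CPM in db/db (adjusted p = 0.0625).

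Skeletal muscle markers were higher in db/db in 18 of 18 genes, with a summed level of 464.2 to 1689 CPM in WT and 2483 to 12348 CPM in db/db, highest in db/db replicate 1. Without that library 15 of 18 were called higher, with a median log2 fold change of 1.84. The other db/db libraries summed to 2483 to 5518 CPM. Acta1, the actin of skeletal muscle, had 109.7 to 395.2 CPM in WT and 813 to 3977 CPM in db/db. Beside the same 15.8% higher and 11.9% lower of all genes, stromal markers had 8 of 9 genes called higher, and endothelial markers had 3 of 8 called lower and 0 higher. Without db/db replicate 1, 6 of 9 stromal markers were called higher. Brown adipocyte markers had 2 of 10 called higher and 5 lower, and their summed level, 16546 to 22709 CPM in WT and 17237 to 23393 CPM in db/db, overlapped. The part of these cell types in the changes of the proteasome genes was not tested for macrophages, stroma and endothelium. The fit with the muscle score is given with the called members. That score did not overlap between the genotypes, so the fit cannot cleanly separate muscle content from genotype.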

How the data were processed

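BAT RNA from 8 mice was sequenced by a commercial mRNA-seq service (single-end, 75 cycles). The authors used bbduk for trimming, STAR for alignment to mm10 and HTSeq-count for counting per gene, and deposited the raw counts used here. The submitters' processing notes also name Trimmomatic, HISAT2 and DESeq2, without a role. Strand and molecular identifiers are not stated, so PCR copies may be counted and genes with overlapping exons are uncertain. Deposited normalized values were not used. Genes were matched to GENCODE M21 (30934 of 31053), filtered with filterByExpr (minimum count 10, minimum total 15), scaled by TMM and tested in edgeR 4.0.16 (quasi-likelihood F test, genotype as sole term) with Benjamini-Hochberg adjustment over all 9264 genes at 0.05. SEs and 95% intervals were derived from the F statistic. CPM is relative to the TMM-scaled library size. Pair ratios used a pseudocount of 0.5 and an exact permutation test. Alternatives were DESeq2 1.42.0, limma-voom 3.58.1, other scalings and filters, a replicate block, a skeletal muscle score as covariate and leaving out each library. The 95% intervals include the spread between libraries, while the floor of 3 counts covers counting error only. Named genes were the catalytic and immune subunits, each member past the threshold, the highest and lowest member of each class, and up to 3 called genes per direction of each pathway list. Members, lists and tests were chosen with earlier results of these data known. Results for some genes of the lists are not reported here.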

Additional observations from a re-analysis of the deposited data

Results flagged for a closer look

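Among 54 sets of 4 libraries examined for a single distant sample (each genotype for the 23 named members, the 3 pair ratios and the members' share of counts), 3 were set apart, and chance alone gives about 2.7, or 1 in 20. Psmb8, the immune catalytic subunit, had 39.1 CPM in db/db replicate 1 and 23.5 to 25.3 CPM in the other 3 db/db libraries. Psmb10 had 32.8 CPM in db/db replicate 3 and 35.7 to 36.3 CPM in the others, a range narrower than that of the WT libraries (26.7 to 38.0 CPM). Psme1, of the PA28 activator, had 133.5 CPM in WT replicate 1 and 89.6 to 96.6 CPM in the other WT libraries. Db/db replicate 1 also held the highest summed level of skeletal muscle markers (12348 CPM), macrophage markers (1489 CPM), interferon gamma response genes (801 CPM) and class I processing genes (4224 CPM), and the part of these in the Psmb8 value was not tested.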

How the results depend on the processing

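Main counts were 2568 genes over the whole table, with 2 members higher and 7 lower. When a skeletal muscle score entered as covariate, 546 genes were called, 0 members (and 0 constitutive members) higher and 1 lower (1 constitutive), Psmc6. The score, a mean log2 CPM, did not overlap (WT libraries 3.80 to 5.58, db/db libraries 5.90 to 8.35). In that fit Psmb8 changed sign to -0.36, Psme1 to 0.089, Psmf1 to 0.22 and Psme3 to -0.052, and Psmb5 moved to 0.63 (SE 0.40), Psma5 to 0.48, Psmb2 to 0.27, Psmb10 to 0.26, Psmb7 to 0.20, Psmc3 to 0.055, Psme2 to -0.11, Psmb6 to -0.15 and Psmb9 to -0.28, none of them called, while the 9 called members kept their direction. Requiring 10 counts in every sample gave 0.039 for Psmb9 and ended the call of Psmc2 (adjusted p = 0.0639). DESeq2, limma-voom, 3 other scalings and the remaining filter kept all 9 member calls, and DESeq2 and upper-quartile scaling called 9 lower in place of 7, adding Psma4 and Psmd7, and limma-voom, RLE factors and library size alone called 8, adding Psma4. Testing each gene with at least 1 count gave 3170 calls. Replicate numbers did not pair the samples (correlations of same-numbered deviations 0.038, 0.049, -0.078 and -0.014, with 3 of 8 libraries closest to their own number), and the fit with the replicate block gave 2557 calls, 2 members higher and 7 lower. Leaving out 1 library at a time gave 2236 to 2483 calls, 2 to 2 members higher, 6 to 8 lower and 0 to 0 immune subunits. In these 8 fits the log2 fold change of the members whose sign turned ran from -0.047 to 0.23 for Psmb8, -0.14 to 0.18 for Psmb9, -0.12 to 0.24 for Psmb5, -0.00044 to 0.19 for Psmb7, -0.10 to 0.32 for Psma5, -0.092 to 0.22 for Psmb2 and -0.15 to 0.0021 for Psmf1. It kept its sign but moved by over 1.5 times for Psmb10 (0.044 to 0.22), Psme1 (-0.24 to -0.037), Psme2 (-0.19 to -0.016), Psme3 (0.050 to 0.24) and Psmb6 (-0.42 to -0.18). The ratio difference ran from -0.30 to 0.28 for Psmb8 to Psmb5, 0.0071 to 0.62 for Psmb9 to Psmb6 and -0.14 to 0.22 for Psmb10 to Psmb7. The cause of these changes was not tested. Psmb5, Psmb8, Psmb9, Psma5 and Psmg1 rest on 22 to 130 counts per library.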
